A study of Mus musculus with 10 samples.

Results

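The small heat shock proteins examined here are 7 genes, Hspb1, Hspb2, Hspb3, Hspb6, Hspb7, Hspb8 and Cryab, chosen by name. Every probe set with 1 of these symbols in the array annotation was taken, which gave 14 of the 45101 probe sets on the array. At the gene level, 5 of the 7 genes (Hspb1, Hspb2, Hspb6, Hspb8 and Cryab) were among the 10915 tested of 18193 measured, and Hspb3 and Hspb7 were too dim to be tested. Averaged over both cell lines, 3 of the 5 tested genes rose after a heat preshock at a limma adjusted p under 0.05. Over all genes tested 1.84% did so. Hspb1 rose by 1.81 ± 0.20 log2 (SE), Hspb8 by 1.22 ± 0.12 and Cryab by 0.79 ± 0.13. None of the 3 passed with array medians made equal in place of quantile normalization. Hspb6 stood at 0.00116 ± 0.13.

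RNA was measured on Affymetrix mouse arrays in 10 samples of mouse embryonic fibroblasts, which are connective tissue cells grown from embryos. The study set preshocked cells against unheated cells in a line labelled hsp70 knockout, (-/-), and in a line labelled hsp70 rescue, (+/+), to assess thermotolerance. Both lines were grown in the same medium in 96-well plates under a gas-permeable seal. Preshocked cells were incubated for 20 hours, held at 43 °C for 30 minutes in a water bath and lysed after 3 hours of recovery, and unheated cells were harvested after 23 hours. There were 3 preshocked and 3 unheated KO-labelled arrays, and 2 preshocked and 2 unheated rescue-labelled arrays. Each sample pooled the lysates of 144 wells, and each genotype was represented by 1 line. The labels do not say that replicates came from separate cultures, so p-values measure only the spread between these samples, which may be technical.

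By the numbers in their titles, each preshocked array adjoins an unheated array of its own line, which gives 3 KO-labelled and 2 rescue-labelled pairs. The median intensity was 50.7 to 73.7 in 8 arrays but 100.4 and 107.02 in the KO-labelled pair numbered 5 and 6. Hspa1a, of the same Hsp70 system, was too dim to be tested, at 3.49 to 25.8 over all arrays. Hspa1b, an inducible Hsp70 gene, was read as a check of the labels, which it could not settle. Its deposited intensity was 19912, 30652 and 31556 in the preshocked and 220.4, 476.7 and 211.7 in the unheated arrays labelled knockout, against 37506 and 24677 and then 464.7 and 675.0 in the rescue-labelled arrays. The transcript thus rose in the line labelled knockout as well (6.81 ± 0.37 log2, SE, limma adjusted p = 2.49e-04 after Benjamini-Hochberg), and where its probes lie relative to the deleted stretch is unknown, so each direction between the lines is a direction between labels. Of 12 fibroblast markers 11 were on the array and 10 were tested, with Vim between 21118 and 50033 and Col1a2 between 10930 and 16400 over all arrays. Col1a1, Col3a1, Fn1, S100a4 and Pdgfrb lay between 522.2 and 35547. Other markers were dim, with Thy1 at 61.0 to 122.1, Dcn at 77.5 to 327.2 and Pdgfra at 108.3 to 396.6. Lum, at 13.5 to 64.1, was too dim to be tested.

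Small heat shock proteins share a crystallin domain and assemble into oligomers that bind unfolding proteins without using ATP, holding them until the Hsp70 system can refold them. Heat shock factor HSF1 induces several of them by binding inverted repeats of the unit GAA (heat shock elements), and p38 MAP kinase and its target kinase MK2 phosphorylate HSPB1, which shifts the size of its oligomers. In fibroblasts and other cells HSPB1 and the Cryab product, alphaB-crystallin, bind actin and intermediate filaments, and HSPB8 acts with BAG3 to hand misfolded clients to selective autophagy. HSPB2, HSPB3, HSPB6 and HSPB7 are best known from heart and skeletal muscle.

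The promoters are shown because HSF1 acts on several of these genes, and the letters of its element can be looked for in each. RefSeq promoter sequences on GRCm38.p6, each from 250 bases before to 50 bases after an annotated start, were matched for 5 of the 7 genes (6 promoters; Hspb1, Hspb3, Hspb6, Hspb7 and Hspb8). They were searched for 2 minimal forms of the heat shock element, GAANNTTC and TTCNNGAA. Each is its own reverse complement, so 1 search covers both strands, and the forms overlap where 3 units adjoin. Hspb1 lies on chromosome 5 from 135887919 to 135889563 on the plus strand. The 250 bases before its start, chr5:135887669-135887918, read as follows, with matches to GAANNTTC in capitals.
Hspb1: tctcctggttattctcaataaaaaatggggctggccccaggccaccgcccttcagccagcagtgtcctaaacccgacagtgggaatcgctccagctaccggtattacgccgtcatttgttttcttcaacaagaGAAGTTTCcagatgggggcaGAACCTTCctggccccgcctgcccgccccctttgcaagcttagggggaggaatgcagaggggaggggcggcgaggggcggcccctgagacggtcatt
The matches begin 117 and 97 bases before the start. The other matches are shown as 30-base windows on the strand of the gene, at chr5:116422844-116422873 (minus strand, Hspb8), chr7:30553170-30553199 (plus strand, the downstream of the 2 Hspb6 starts) and chr13:113663882-113663911 (minus strand, Hspb3).
Hspb8: agaagccaggaGAAGTTTCtaggctcgcga
Hspb6: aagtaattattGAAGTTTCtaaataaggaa
Hspb3: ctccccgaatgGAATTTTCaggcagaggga
The Hspb8 match begins at base 3 of the transcribed sequence, the Hspb6 match 120 bases before its start and the Hspb3 match 224 bases before. The same 8 letters, GAAGTTTC, stood in Hspb1, Hspb8 and Hspb6, and in 1.21% of all 32851 promoters, a share computed after the matches were seen.

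Thus 4 of the 6 promoters held GAANNTTC, against 7.86% of all 32851, and none held TTCNNGAA, against 8.52%. Hspb1 held GAANNTTC 2 times, as 0.344% of promoters did, a count also added after the match was seen. A run of 3 adjoining units in alternating orientation was in none of the 6 and in 0.603% of all promoters. TATAAA, the TATA box core, searched on both strands, was found on the strand of the gene in Hspb3 and at the downstream Hspb6 start, against 13.6% of all promoters. These matches describe letters only. Hspb6 and Hspb3 carried the same form as Hspb1 and Hspb8. The Hspb6 transcript, given further on, was not called, and Hspb3 was too dim to be tested as a gene.

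Hspb1 encodes HSP25 of the mouse (HSP27 in human), a widely expressed member of the family, gene 15507. On its probe set 1422943_a_at the deposited intensity was 10444, 6695 and 4139 in the unheated and 17004, 23888 and 38110 in the preshocked KO-labelled arrays. It was 9354 and 7545 in the unheated and 35466 and 28104 in the preshocked rescue-labelled arrays. In both lines every preshocked array lay above every unheated array. Group means went from 7093 ± 3171 to 26334 ± 10763 with the KO label (SD, n = 3 each), and from 8450 ± 1279 to 31785 ± 5206 in the rescue-labelled arrays (SD, n = 2 each).

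Within the array pairs the preshocked intensity of Hspb1 was 3.00 to 4.70 times the unheated intensity. The second probe set, 1425964_x_at, whose suffix marks probes that may bind related sequences, read 7157, 4909 and 3139 against 15861, 22809 and 36723 in the KO-labelled arrays. In the rescue-labelled arrays it read 6530 and 5504 against 33810 and 26789. Its groups did not overlap either, and its pair ratios ran from 4.10 to 6.14. Preshocked Hspb1 lay at or above percentile 99.69 of its array on the first probe set, near the top of the normalized scale, where differences may be understated.

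Hspb8 is gene 80888 on chromosome 5, from 116408491 to 116422864. Its probe set 1417013_at read 2297, 1923 and 1895 in the unheated and 4292, 5169 and 5726 in the preshocked KO-labelled arrays. The rescue-labelled arrays stood at 2713 and 2020 unheated and at 5157 and 5577 preshocked. Preshocked arrays were again all higher, and the pair ratios, 2.06 to 2.69, spanned a narrower range than those of Hspb1. Means were 2039 ± 225 and 5062 ± 723 (SD, n = 3 each) in the KO-labelled arrays and 2366 ± 490 and 5367 ± 297 (SD, n = 2 each) in the rescue-labelled arrays.

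The 3 probe sets of Hspb8 did not behave alike. Probe set 1417014_at followed the first. It read 616 to 742 in the unheated and 1703 to 2267 in the preshocked KO-labelled arrays, and 974 and 597 against 1764 and 3081 in the rescue-labelled arrays. Probe set 1456434_x_at lay between 181.6 and 558.2 over all arrays, was higher after preshock in 2 of 5 pairs, and had a mean response of -0.03 ± 0.38 log2 (SE). The groups overlapped on this probe set in both lines, and whether its probes measure the Hspb8 transcript was not tested.

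Cryab encodes alphaB-crystallin, a lens protein that is also made in muscle and in stressed fibroblasts. Its brightest probe set, 1434369_a_at, read 7279, 6883 and 5508 in the unheated and 11286, 12500 and 13134 in the preshocked KO-labelled arrays. The rescue-labelled arrays read 5029 and 7064 unheated and 12430 and 9117 preshocked. No preshocked array of either line lay below an unheated one, and the pair ratios ran from 1.76 to 2.05. Means went from 6557 ± 930 to 12307 ± 939 (SD, n = 3 each) and from 6047 ± 1439 to 10773 ± 2342 (SD, n = 2 each).

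A second Cryab probe set, 1416455_a_at, moved the same way, with pair ratios of 2.11 to 2.61. It read 3071, 2198 and 2316 against 5724, 5451 and 7183 in the KO-labelled arrays, and 3477 and 2286 against 5960 and 7339 in the rescue-labelled arrays. The third, 1435837_at, was near the floor at 0.59 to 46.1 and was higher in 2 of 5 pairs. The lens markers Cryaa, Crygs, Cryba1 and Mip, all on the array, were below the filter, with a summed intensity of 15.3 to 93.7 over the arrays. Of 12 skeletal and cardiac muscle markers 4 were tested. By limma 0 of these 4 passed in the mean response (0 at an unadjusted p under 0.05), beside 4.42% of all genes tested (1889 of 10915 unadjusted). With the pair block 1 of the 4 muscle markers passed, beside 17.4% of all genes. The summed intensity of all 12 was 5075 to 5788 in unheated and 5715 to 7364 in preshocked KO-labelled arrays, and 5501 to 6074 and 6119 to 7439 in the rescue-labelled arrays, most of it from Tnnt2 (3663 to 6995), while Des, Myog, Ckm and Ttn were below the filter. The part of this difference in the Cryab result was not tested. In pooled cultures, fewer cells of a type and less RNA per cell cannot be told apart.

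**Figure D1:**
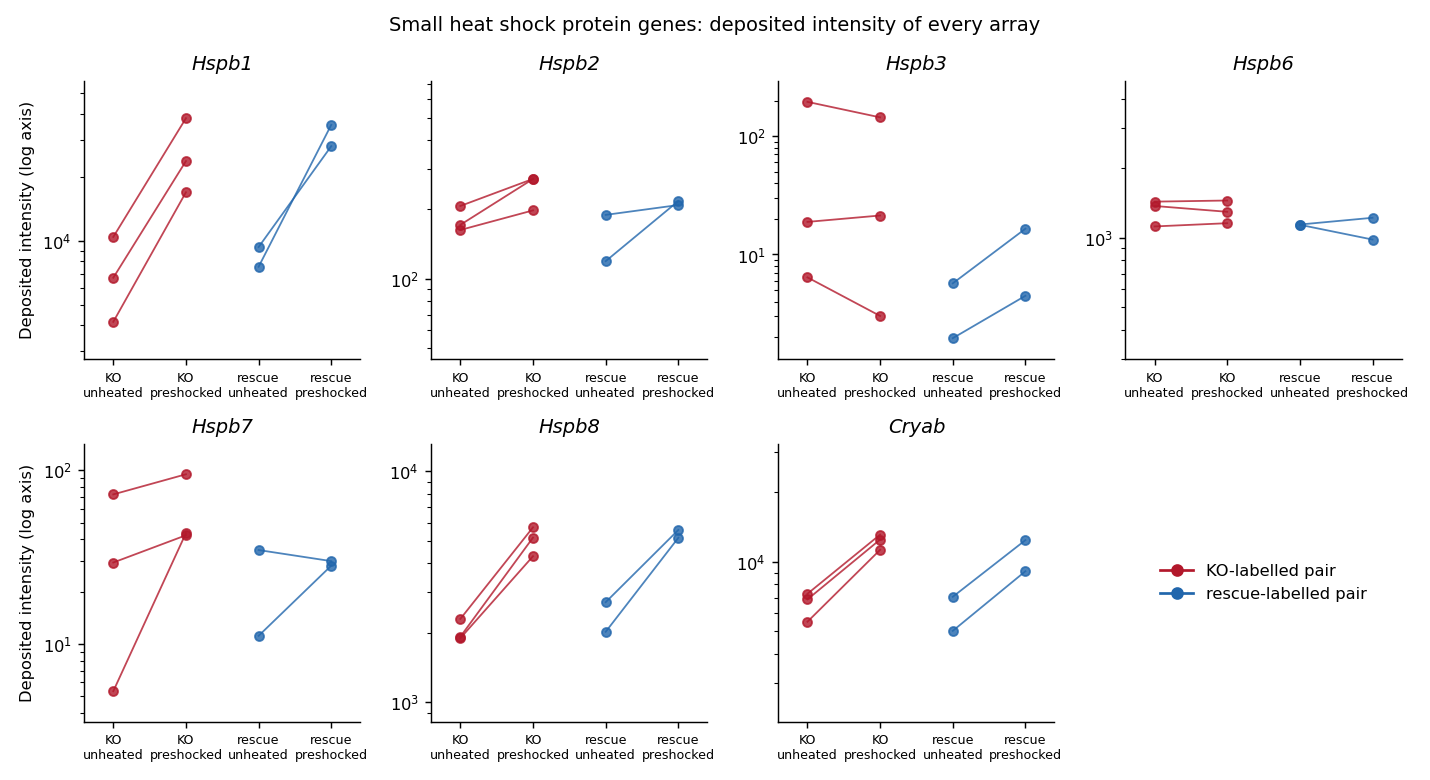
Deposited intensity (log axis) of the brightest probe set of each of the 7 genes in every array, unheated and preshocked, with lines joining the arrays of a pair and colours for the lines. Hspb1, Hspb2, Hspb8 and Cryab were higher after preshock in each of the 5 pairs, Hspb2 by ratios of 1.10 to 1.82. Hspb6 stayed near the same level, and Hspb3 and Hspb7 were dim with scattered values.

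Hspb2 encodes a muscle small heat shock protein first described as a binding partner of myotonic dystrophy kinase. It lies on chromosome 9 from 50751072 to 50752354, inside the annotated span of Cryab (50745951 to 50756636), so its signal is uncertain. Its single probe set read 171.5, 162.9 and 207.0 in the unheated and 271.1, 198.0 and 270.9 in the preshocked KO-labelled arrays, and 189.3 and 119.3 against 217.3 and 208.9 in the rescue-labelled arrays. The KO-labelled ranges overlapped as deposited but not after quantile normalization. Every pair was higher after preshock, by ratios of 1.10 to 1.82.

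Hspb6 (HSP20, a smooth and cardiac muscle protein that binds actin-associated partners) was well measured without a detectable response. Its intensity was 1435, 1121 and 1375 in the unheated and 1297, 1158 and 1452 in the preshocked KO-labelled arrays. In the rescue-labelled arrays it was 1139 and 1142 against 1222 and 983.5. The groups overlapped in both lines, and the preshocked array was the higher one in 3 of 5 pairs. The 95% interval of the mean response was -0.30 to 0.30 log2.

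Hspb3 and Hspb7, which are made mainly in heart and skeletal muscle, were dim throughout. Hspb3 read 18.8, 6.40 and 194.8 unheated and 144.1, 3.02 and 21.3 preshocked in the KO-labelled arrays, with 5.70 and 1.96 against 4.47 and 16.5 in the rescue-labelled arrays. Its highest values, 194.8 and 144.1, both came from the pair numbered 5 and 6, the pair with the high array medians. The brightest of the 3 Hspb7 probe sets, 1421290_at, read 5.33, 29.4 and 72.7 against 94.9, 42.2 and 43.5, and 34.7 and 11.1 against 28.2 and 30.0. The groups of both genes overlapped in both lines, and the other Hspb7 probe sets lay at 0.77 to 17.8 and at 2.49 to 61.4.

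The responses were tested with limma on quantile-normalized log2 values, with Benjamini-Hochberg adjustment over all 10915 genes and a call at an adjusted p under 0.05. In the KO-labelled arrays 3 of the 5 tested genes rose, and 0.944% of all genes tested were called as higher. Hspb1 rose by 1.92 ± 0.26 log2 (SE, limma adjusted p = 0.0119), Hspb8 by 1.28 ± 0.16 (0.00916) and Cryab by 0.86 ± 0.16 (0.0406). Hspb2 stood at 0.58 ± 0.21 (limma adjusted p = 0.275) and Hspb6 at 0.02 ± 0.17 (0.999). The median of the 5 genes was 0.86, beside -0.04 over all genes tested. With the array pair as a block the same 3 genes were called, where 9.15% of all genes were called in either direction.

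The KO-labelled calls depended on single arrays to different degrees. The Cryab call ended without any 1 of the 10 arrays (limma adjusted p from 0.0513 to 0.147). The Hspb1 call ended without KO preshocked replicate 2 (0.0569) or KO unheated replicate 2 (0.0525), and the Hspb8 call ended without KO preshocked replicate 2 (0.0510). With array medians made equal in place of quantile normalization, the log2 changes were 2.00, 1.39 and 1.0 for Hspb1, Hspb8 and Cryab and none was called (limma adjusted p of 0.299, 0.300 and 0.747).

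In the rescue-labelled arrays the values were of like size, but limma called 0 of the 5 genes (3 at an unadjusted p under 0.05), where 0.275% of all genes were called as higher. Of all 10915 genes, 913 had an unadjusted p under 0.05 in either direction. Hspb1 stood at 1.69 ± 0.31 log2 (SE, limma adjusted p = 0.0813), Hspb8 at 1.16 ± 0.19 (0.0556) and Cryab at 0.72 ± 0.20 (0.274). Hspb2 was at 0.55 ± 0.26 and Hspb6 at -0.02 ± 0.21. With the pair block Hspb8 was called (limma adjusted p = 0.0360), and 1.50% of all genes were called in either direction. Hspb1 passed without KO unheated replicate 1 (0.0486) or KO unheated replicate 3 (0.0210), arrays that enter this comparison only through the shared estimate of spread. The mean of all probe sets of Cryab, which includes the dim one, gave 0.01.

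**Figure D2:**
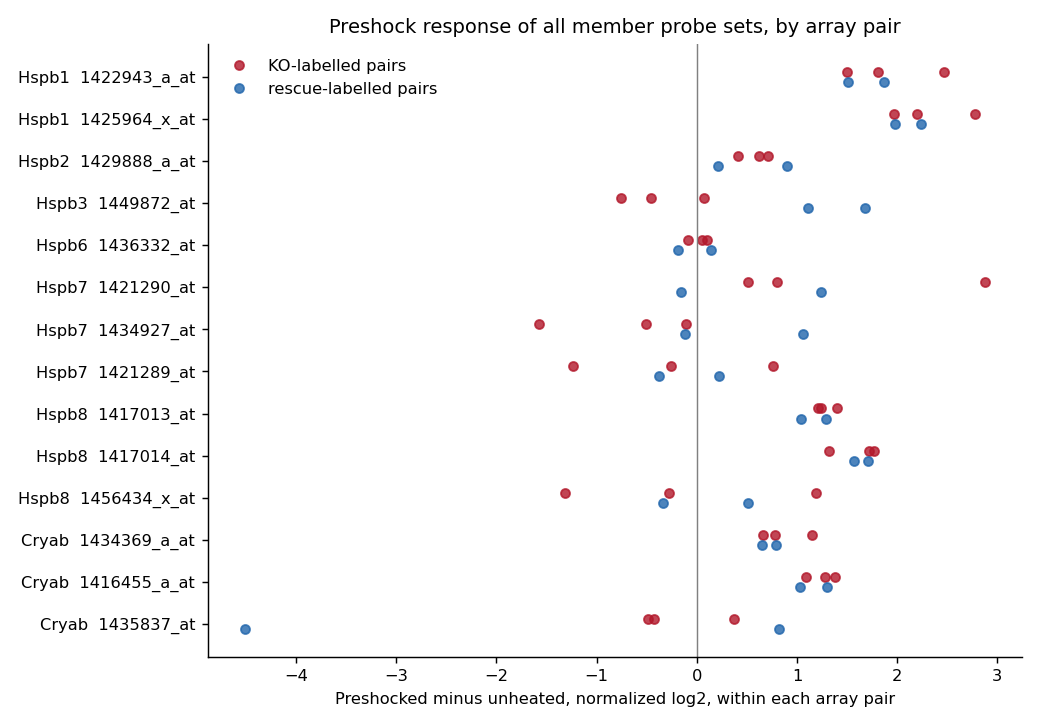
Preshocked minus unheated normalized log2 value (horizontal axis) within each of the 5 array pairs for all 14 probe sets, coloured by line. Each pair lies above 0 on 7 probe sets (both of Hspb1, that of Hspb2, and 2 each of Hspb8 and Cryab), and points scatter on both sides of 0 on the others.

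Averaged over both lines, Hspb1 (1.81 ± 0.20 log2, SE, limma adjusted p = 0.00296), Hspb8 (1.22 ± 0.12, 0.00182) and Cryab (0.79 ± 0.13, 0.0139) were called as higher, 3 of 5 genes, where 1.84% of all genes tested were. Hspb2, at 0.57 ± 0.17 (limma adjusted p = 0.112), was called with the pair block (0.0408), under which 17.4% of all genes were called in either direction. The Cryab call ended without rescue preshocked replicate 1 (0.0663) or rescue unheated replicate 1 (0.0542), with no filter on dim genes (0.0649) and with every probe set fitted on its own (0.167). With the mean of all probe sets of a gene, Cryab stood at 0.33 ± 0.28 log2 and was not called (0.728). All 3 calls ended with array medians made equal (limma adjusted p of 0.0597 for Hspb1, 0.0781 for Hspb8 and 0.284 for Cryab), with log2 changes of 1.96, 1.30 and 0.92.

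A fit over all 45037 probe sets that are not controls, with no filter, gave every member probe set a value. In the mean response 4 of the 14 were called as higher, where 0.238% of all probe sets were called in either direction. They were both of Hspb1 (limma adjusted p of 0.0406, and 0.0178 for 1425964_x_at at 2.21 ± 0.22 log2, SE) and 1417013_at and 1417014_at of Hspb8 (0.0456, and 0.0492 at 1.62 ± 0.22). The second Cryab probe set stood at 1.21 ± 0.20 (limma adjusted p = 0.0949). Within the KO-labelled arrays limma called 0 of the 14 (6 at an unadjusted p under 0.05), where 0.0600% of all probe sets were called, and within the rescue-labelled arrays 0 of the 14 (6 unadjusted), where 0.0244% were. Unadjusted, 2985 of all 45037 probe sets passed in the KO-labelled and 2557 in the rescue-labelled arrays. With the pair block none of the 14 passed in the mean response (lowest limma adjusted p = 0.0960), where 0 of all 45037 probe sets did.

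Without a model, 4 of the 5 tested genes (Hspb1, Hspb2, Hspb8 and Cryab) had all preshocked arrays above all unheated arrays in each line after normalization. Over all genes tested, with each line counted singly, 5.63% did so in the KO-labelled and 16.4% in the rescue-labelled arrays. The share that did so in both lines at once was not computed. The same 4 genes were higher in each of the 5 pairs, as were 12.6% of all genes tested.

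The lines were next compared directly. The difference of the preshock responses, rescue minus KO, was -0.23 log2 for Hspb1 (95% interval -1.16 to 0.69), -0.12 for Hspb8 (-0.69 to 0.45), -0.14 for Cryab (-0.74 to 0.45), -0.03 for Hspb2 (-0.80 to 0.74) and -0.04 for Hspb6 (-0.65 to 0.56). By limma 0 of the 5 were called (0 at an unadjusted p under 0.05), where 0% of all genes tested were (103 of 10915 unadjusted). The interval of Hspb1 reached -1.16 log2, so the missed threshold does not show that the lines responded alike.

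In unheated cells the rescue-labelled line stood 0.30 log2 from the KO-labelled line for Hspb1 (95% interval -0.35 to 0.96), 0.18 for Hspb8 (-0.22 to 0.58), -0.18 for Cryab (-0.60 to 0.24), -0.03 for Hspb2 (-0.57 to 0.51) and -0.23 for Hspb6 (-0.66 to 0.20). In preshocked cells the values were 0.07 for Hspb1 (-0.58 to 0.73), 0.06 for Hspb8 (-0.34 to 0.46), -0.33 for Cryab (-0.75 to 0.09), -0.06 for Hspb2 (-0.60 to 0.48) and -0.27 for Hspb6 (-0.70 to 0.16). By limma 0 of the 5 were called in either state (0 at an unadjusted p under 0.05), where 0.421% of all genes were called in unheated and 0.339% in preshocked cells. Unadjusted, 1409 of all 10915 genes passed in unheated and 1536 in preshocked cells. For Cryab the 2 brighter probe sets gave opposite signs, since 1416455_a_at stood at 0.16 in unheated and 0.07 in preshocked cells. The third, 1435837_at, near the floor, stood at -0.53 and -2.19. Among the 4 tested muscle markers Acta1, named after its value was seen, was lower in the rescue-labelled line by -1.41 ± 0.20 in unheated (limma adjusted p = 0.0346) and -1.60 ± 0.20 in preshocked cells (0.0335), calls that ended with the pair block (0.117 and 0.0833). Its part in the values of the members was not tested. With array medians made equal, the median of all genes moved by 0.52 in unheated and 0.43 in preshocked cells, Cryab, Hspb2 and Hspb6 turned positive, and Hspb1 stood at 0.89 and 0.81 and Hspb8 at 0.75 and 0.56, with 0 of the 5 called. Relative to that median, Hspb1 stood at 0.39 in both states, Hspb8 at 0.25 and 0.14, Cryab at -0.08 and -0.16, Hspb2 at -0.21 and -0.15, and Hspb6 at -0.15 and -0.19.

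**Figure D3:**
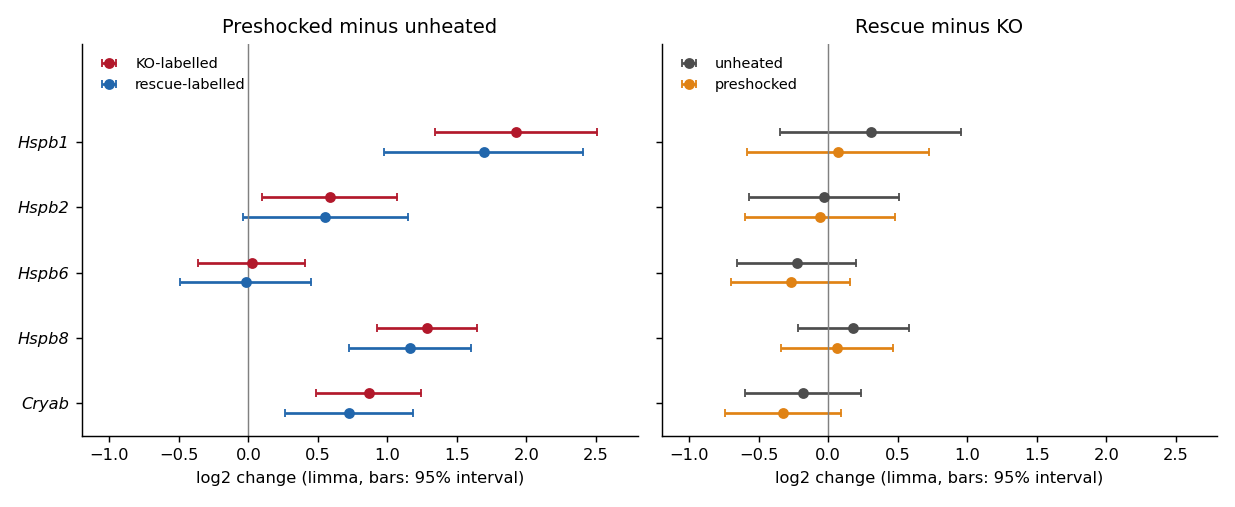
Log2 changes of the 5 tested genes with 95% intervals from limma, preshocked minus unheated in each line (left) and rescue minus KO in each state (right). The intervals of the lines overlap for each gene on the left, and each interval on the right spans 0.

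The partners of the small heat shock proteins were read in the same fits, in lists chosen by function. In the cytosolic Hsp70 system, which refolds the clients they hold, 15 of 16 genes were tested and 5 rose in the mean response, with 0 lower and a median of 0.30 log2, beside -0.04 over all genes. Hspa1b rose by 6.20 ± 0.30 (SE, limma adjusted p = 5.12e-05). The J-domain cochaperones Dnajb1 and Dnajb4, which bring clients to Hsp70, rose by 2.76 ± 0.13 (5.12e-05) and 2.25 ± 0.12 (7.31e-05). Hsph1, the Hsp110 exchange factor, rose by 2.00 ± 0.16 (limma adjusted p = 5.70e-04), and Dnaja4, named after its value was seen, by 3.84 ± 0.44 (0.00329). Over all genes 1.84% were called as higher in the mean response. In single lines 5 of the 15 rose in the KO-labelled arrays, beside 0.944% of all genes, and 4 in the rescue-labelled arrays, beside 0.275%. With the pair block 9 rose in the mean response, beside 5.87% of all genes.

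Of 9 genes of the route by which Hspb8 and Bag3 deliver clients to autophagy, 8 were tested and 1 rose in the mean response, where 1.84% of all genes did. Bag3, the cochaperone that binds HSPB8, went from 1379 ± 268 to 4388 ± 584 with the KO label (intensity, SD, n = 3 each), and from 1287 ± 1.63 to 4065 ± 18.7 in the rescue-labelled arrays (SD, n = 2 each). Its mean response was 1.67 ± 0.13 log2 (SE, limma adjusted p = 5.70e-04). The autophagy receptor gene Sqstm1 stood at 0.21 ± 0.13, Map1lc3b at 0.11 ± 0.10 and Lamp2 at 0.12 ± 0.18, and the median of the 8 was 0.07. By these counts Bag3 and Hspb8 rose, and the later steps of the route were not called.

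Of 11 kinases upstream of HSPB1, 10 were tested, with a median of -0.15 log2 in the mean response. Limma called 0 of the 10, beside 4.42% of all genes tested. At an unadjusted p under 0.05 there was 1 of the 10, beside 1889 of all 10915 genes. The p38 gene Mapk14 stood at -0.16 ± 0.11, its activator Map2k3 at 0.20 ± 0.14, and Mapk11 at -0.29 ± 0.20. Mapk12, which encodes p38 gamma, differed between the lines in both states. Its intensity was 289.7 to 392.5 in unheated and 225.7 to 238.9 in preshocked KO-labelled arrays, and 20.3 and 6.85 against 5.48 and 7.60 in the rescue-labelled arrays. The rescue-labelled arrays were all near the floor, and the log2 differences were -4.45 ± 0.37 (SE, limma adjusted p = 0.00335) and -4.79 ± 0.37 (0.00376), of uncertain size at that level. This was 1 of 10 kinase genes called in each line comparison, beside 0.421% of all genes in unheated and 0.339% in preshocked cells.

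Of 12 filament and cytoskeletal clients 10 were tested, with a median of -0.04 log2. Limma called 0 of the 10 (0 at an unadjusted p under 0.05), beside 4.42% of all genes tested in the mean response. Acta2 stood at -0.10 ± 0.10, Flna at -0.08 ± 0.10, Lmna at -0.07 ± 0.14 and Krt8, which was dim, at 0.83 ± 0.67. Of 6 heat shock factor genes and their binding protein 2 were tested, and limma called 0 (1 at an unadjusted p under 0.05). Over all 10915 genes 1889 had an unadjusted p under 0.05. Hsf2 stood at 0.58 ± 0.25 (limma adjusted p = 0.283) and Hsbp1, which encodes a negative regulator of HSF1, at 0.05 ± 0.10, and Hsf1 was not measured by a probe set with a single symbol. Of 4 further genes listed beside the members, Hspb11 was tested, at 0.01 ± 0.20 (limma adjusted p = 0.993). Cryaa, Hspb9 and Odf1 were below the filter. The name of Hspb11 alone does not show that it shares the crystallin domain, so its value is no result about the family.

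**Figure D4:**
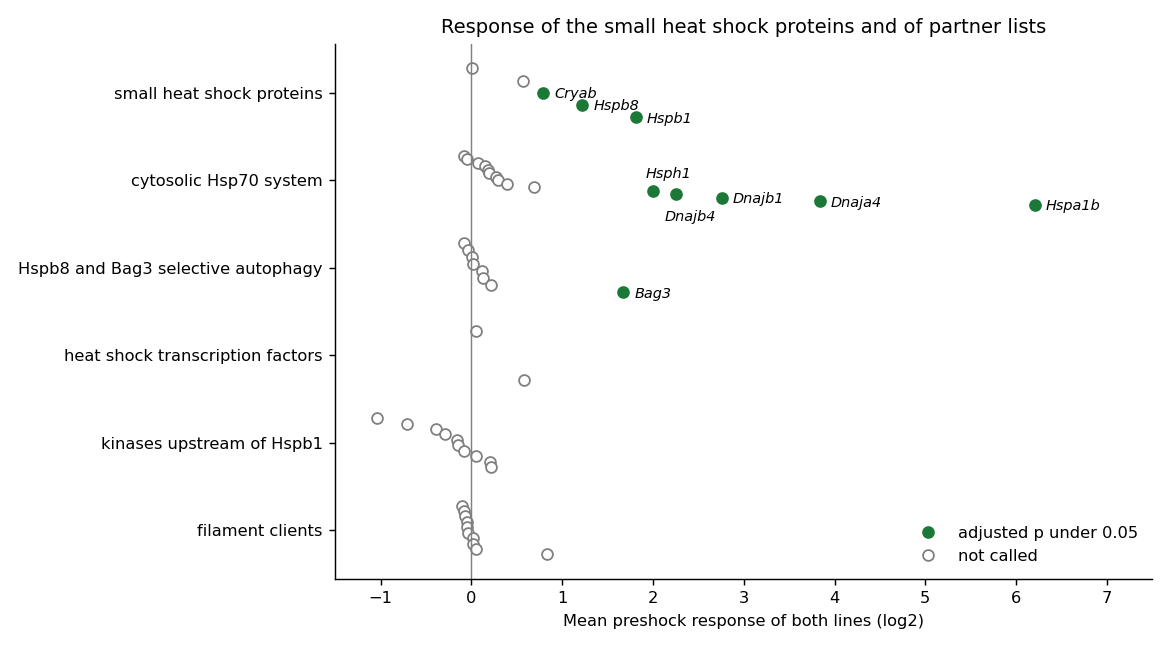
Mean preshock response of both lines (log2, horizontal axis) of each tested gene in the small heat shock protein list and 5 partner lists, filled where limma's adjusted p was under 0.05. Hspb1, Hspb8 and Cryab, 5 genes of the Hsp70 system and Bag3 are filled, and the kinases, filament clients and heat shock factors are not.

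Genes whose normalized log2 values ran most like each member over the 10 arrays were listed by Pearson r as a description, since the arrays fall into preshocked and unheated groups and share pairs. For Hspb1 they were Dnaja4 (r = 0.991), Dedd2 (0.990) and Atg12 (0.982), and for Hspb8 they were Zfand2a (0.976), Dedd2 (0.976) and Hspb1 (0.975). For Cryab they were Spty2d1 (0.982), Riok3 (0.980) and Oser1 (0.977). The closest genes to Hspb2 had lower values, Kank1 (0.917), Cdkn2aip (0.899) and Armc7 (0.894). Hspb6 ran with Ecsit (0.957), Galnt3 (0.952) and Mrpl23 (0.947), genes that stood at 0.05, 0.01 and 0.06 log2 after preshock in the KO-labelled arrays.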

How the data were processed

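Mouse fibroblast RNA of 10 samples was hybridised to Affymetrix arrays, 1 array per sample. The authors deposited 1 linear intensity for each probe set of an array, by probe summarisation software not given in the sources used here. Trimmed means (2% off each end) of 500.0028 to 500.0039 show scaling to a common target. Array medians of log2 values of the deposited intensities differed by up to 1.08, above a tolerance of 0.2, so after values below 1 (4935 of them) were set to 1, log2 values were quantile normalized with limma 3.58.1 (R 4.3.3, statmod 1.5.0). Precision is limited by how many arrays there are.

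The fits excluded 64 control probe sets. Of the others 34945 had 1 gene symbol, 932 several and 9160 none. A gene was represented by its brightest probe set (by mean), and tests were run on the brightest 60% of genes. One limma model gave each of the 4 groups a mean, with Benjamini-Hochberg adjustment over the genes tested, and errors of log2 changes are standard errors. The script was tested on simulated data. Groups came from the source names in the labels.

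Members and lists were chosen with earlier results of these data known. All 7 members are named. Of each partner list the genes named are at most 4 with the smallest adjusted p in the mean response, with Bag3, Hspa1b and Hsf1, and others are named where a count made them needed. Arrays with adjoining label numbers were taken as pairs by those numbers. Within the KO-labelled pairs, deviations from the group means correlated with r of 0.721, 0.376 and 0.552. In both rescue-labelled pairs r was 0.370, since these mirror each other. Other pairings were not tried, so these r do not establish the pairing. The pair block, other scalings, filters, probe set rules and variance models, and leaving out arrays, were the alternatives. Promoters came from RefSeq on GRCm38.p6.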

Additional observations from a re-analysis of the deposited data

How the results depend on the processing

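Direction held for Hspb1, Hspb8 and Cryab in both lines and in the mean response under each of the 20 or 21 alternatives run, and their calls depended on the setting. The count of 3 called genes in the KO-labelled arrays became 0 with array medians made equal, with no filter on the mean signal and with every probe set fitted on its own. It became 1 with the deposited scaling kept (Hspb8), with the mean of all probe sets of a gene (Hspb1) and with only the groups compared in the fit (Hspb8), and 2 (Hspb1 and Hspb8) without the pair numbered 5 and 6. Leaving out 1 array gave 0 to 2. The count of 0 in the rescue-labelled arrays became 1 with the pair block (Hspb8), without the pair numbered 5 and 6 (Hspb1) and with log2 of the value plus 16 (Hspb8). It became 2 (Hspb1 and Hspb8) with the 40% brightest genes and with trend and robust variances, and leaving out 1 array gave 0 to 1. The count of 3 in the mean response became 0 with array medians made equal, 4 with the pair block, 2 (Hspb1 and Hspb8) with no filter, with the mean of all probe sets of a gene and with every probe set on its own, and 2 to 3 without 1 array. Over all genes tested only the lowest and highest counts are given below, so these changes are not shown to be particular to the members. Some alternatives entail fewer arrays or more genes tested, and the cause of the changes was not tested. The block changed no other member's call.

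No member was called between the lines or in the difference of responses under any alternative. Over all genes tested the count called was 193 in the KO-labelled arrays (27 with every probe set fitted on its own, 999 with the pair block), 39 in the rescue-labelled arrays (1 with only the groups compared, 164 with the pair block) and 482 in the mean response (107 and 1901, under the same settings as in the KO-labelled arrays). It was 0 for the difference of responses (3 with every probe set on its own), 46 between the unheated lines (0 to 85) and 37 between the preshocked lines (0 to 58). The counts of 27, 107 and 3 are of probe sets, out of 45037, and not of genes. Groups of 2 and 3 arrays were too small to look for outlying samples, and signal over background was not given for each probe set.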
